A study of Caenorhabditis elegans with 8 samples.

Results

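The genes described here are the C. elegans genes named math, bath or btb followed by a number, 3 gene classes named for the MATH and BTB protein domains. A gene was a member if its symbol had that form and a probe on the array carried that symbol and no other, and 103 of the 26128 genes measured met this rule. They were 46 math genes, 36 bath genes and 21 btb genes, each with 1 such probe. The rule used names and no measured value.

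RNA was taken from whole synchronized populations of wild-type N2 Bristol worms at day 1 of adulthood (3 arrays), day 6 (3 arrays) or day 12 (2 arrays). The populations grew at 20 °C on NGM plates with OP50 E. coli, were handled in M9 buffer and aged with no other intervention, so the groups differed by age alone as far as the labels say. The replicates are called biological, but nothing says that they came from separate cultures, so the p-values measure the spread between these arrays. Each array held the RNA of whole animals, so fewer cells of a type and less RNA per cell cannot be told apart.

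MATH and BTB are protein-binding domains. A protein with both, as the bath genes encode, holds a target with its MATH domain and the cullin CUL-3 with its BTB domain, so that the CUL-3 ligase attaches ubiquitin to the target. The best known C. elegans example, MEL-26, delivers the katanin subunit MEI-1 to CUL-3 for destruction after meiosis. A BTB domain can also pair proteins with each other, while a MATH domain without a BTB domain occurs in proteins of other kinds, such as the deubiquitylase MATH-33. These families, like the F-box families that serve another cullin, are large in nematodes.

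By the RefSeq annotation of assembly WBcel235, 87 members lay on chromosome II, 5 each on chromosomes I and III, 4 on V and 1 each on IV and X. It lists 87 members as protein coding and 16 as pseudogenes. In its gene order, 61 members were next to another member, in 17 runs that all lay on chromosome II. The longest run held 12 math genes, from math-15 to math-9.

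Most members gave little signal. The values are log2 signal, and a mean over the 8 arrays under 3 is called dim here, since it is close to the floor of the arrays. Of the 103 members 66 were dim, which is 64.1% against 63.2% of all probes tested. By class, 43 of 46 math genes, 12 of 36 bath genes and 11 of 21 btb genes were dim. Of the 16 pseudogenes, btb-3 alone was bright, and its differences did not pass the test. The bright members had means of 3.12 to 9.0, and the dim ones 1.51 to 2.96. Around the threshold lay bath-47 at 2.96, btb-17 at 2.95 and btb-16 at 2.94 on the dim side, and bath-10 at 3.12, bath-21 at 3.15 and math-14 at 3.18 on the bright side. Over all 8 arrays 59 members stayed within 1 log2 unit, and 58 had a mean under 3 on every day.

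The arrays were alike in overall signal, with medians of 2.32 to 2.40, and Pearson's r across probes was 0.984 to 0.990 between arrays of a day and 0.941 to 0.981 between days. Tissue markers moved strongly with age. All 7 muscle markers and 5 of 6 intestine markers were lower at day 12 than at day 1, with median log2 differences of -3.38 and -2.91, and 3 of 6 embryo markers rose. The median signal of the muscle markers was 9.20 to 10.2 at day 1, 6.60 to 8.67 at day 6 and 4.75 to 5.49 at day 12. For the embryo markers it was 2.42 to 2.83 at day 1, 3.50 to 4.04 at day 6 and 5.90 to 6.02 at day 12. The 3 embryo markers that rose were tbx-8, ztf-11 and hch-1. For day 12 minus day 1 the others, the dim end-1 and end-3 and the bright tbx-9, differed by -0.26, 0.36 and -0.30. The tbx-9 marker was lower at day 12 than at day 6 (-0.66). At day 12, set against day 1, 1 of 8 germline markers and 1 of 7 neuron markers were higher and none was lower, and 1 gene was higher and 1 lower among the 11 oocyte and eggshell markers and among the 4 hypodermis markers. All 9 sperm markers were dim, and 2 of them were higher. By sign, all 11 oocyte and eggshell markers were above 0 for day 6 minus day 1 (median 0.15). For day 12 minus day 1, 9 of the 11 were below 0 (median -0.32), as were 9 for day 12 minus day 6 (median -0.48). Of the 8 germline markers, 7 were above 0 for day 6 minus day 1 (median 0.24). For day 12 minus day 1, 5 were above 0 (median 0.01), and for day 12 minus day 6, 7 were below 0 (median -0.24). The part of tissue composition in the results below was not tested. With no batch or date in the labels, age and any batch aligned with it cannot be told apart.

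Over the 3 comparisons together 18 of the 103 members changed with age, beside 16.4% of all probes. Differences are log2 values of the later day minus the earlier one, from a limma fit to all 8 arrays, and a gene is called higher or lower at an adjusted p under 0.05 over the 26761 probes tested. Between day 6 and day 1, 6 of the 103 members were higher and 1 was lower, beside 2.18% and 1.66% of all probes. Day 12 differed more from day 1, with 12 members higher and 2 lower, beside 9.58% and 4.52% of all probes. Between day 12 and day 6, 4 members were higher at day 12 and 5 lower, beside 6.36% and 2.69%. The 3 comparisons share arrays and are not independent of each other.

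Over all 103 members the median log2 difference was 0.07 for day 6 minus day 1, 0.03 for day 12 minus day 1 and -0.09 for day 12 minus day 6, beside 0.02, -0.01 and -0.03 over all probes. Among the 37 bright members, 4 were higher and 1 lower at day 6 against day 1, beside 5.31% and 4.05% of bright probes. For day 12 against day 1, 7 of them (18.9%) were higher and 1 lower, beside 18.8% and 10.4%, so the share called higher was close to that of bright probes in general. In day 12 against day 6, 2 were higher and 2 lower, beside 11.7% and 6.56%. In these and later counts, bright was set by a mean that includes the days compared, so a gene's change could decide its class. The bright bath-10 had means of 2.64 at day 1, 2.45 at day 6 and 4.86 at day 12. For the dim btb-16 they were 3.22, 3.23 and 2.08. The same rule was used for all probes, and its effect on the shares was not tested.

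The medians of the bright members were 0.38, 0.14 and -0.20 in the same order of comparisons, beside 0.12, 0.11 and -0.03 over all bright probes. The shift at day 12 against day 1 depended on the scaling of the arrays, and the others kept their sign. Cyclic loess normalization brought the medians of all bright probes to 0.02, 0.01 and -0.02, and those of the bright members to 0.25, -0.00 and -0.19. With quantile normalization they were 0.06, 0.00 and -0.07 over all bright probes and 0.30, -0.03 and -0.23 over the bright members. The whole table's balance of calls moved too, with 427 probes higher and 579 lower at day 6 against day 1 under cyclic loess, in place of 584 and 445, and 2196 higher and 1535 lower at day 12 against day 1, in place of 2564 and 1209. With quantile normalization day 12 against day 1 gave 2048 and 1543.

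In all, 18 members were called in at least 1 comparison: 8 of the 36 bath genes, 8 of the 21 btb genes and 2 of the 46 math genes. Of these 10 were bright and 8 dim, and 16 lay on chromosome II, the exceptions being bath-36 on V and bath-41 on III. The other 85 were not called in any comparison. Among all probes 16.4% were called at least once in either direction, 33.8% of the bright ones and 6.2% of the dim ones, beside 10 of 37 bright members and 8 of 66 dim ones. In each class, 0 of 3 bright and 2 of 43 dim math genes were called, 6 of 24 bright and 2 of 12 dim bath genes, and 4 of 10 bright and 4 of 11 dim btb genes. The classes were not tested against each other, and nearly all math genes were dim.

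**Figure D1:**
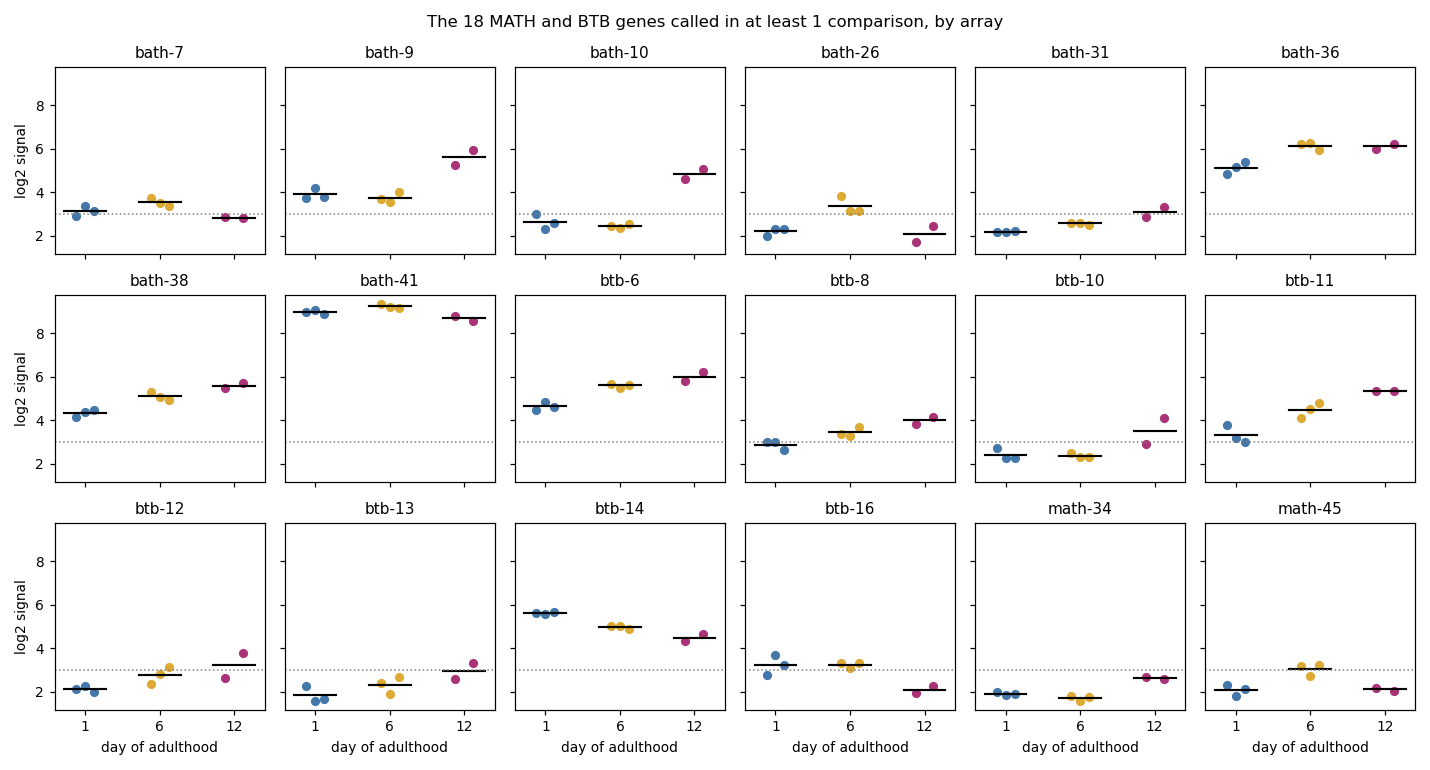
Log2 signal (vertical axis) of the 18 MATH and BTB genes called in at least 1 comparison, by day of adulthood (horizontal axis). Each point is an array, each black bar the mean of a day, and the dotted line marks a log2 signal of 3. In bath-10 and bath-9 both day 12 arrays lie above all arrays of days 1 and 6, while bath-26 and math-45 are highest at day 6.

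The neighbouring genes bath-10 and bath-9 were high at day 12 only. Signal of bath-10 (probe 18490816) was 3.01, 2.31 and 2.60 at day 1, 2.45, 2.37 and 2.53 at day 6, and 4.63 and 5.09 at day 12. Its neighbour bath-9 (probe 18490807) gave 3.75, 4.18 and 3.80 at day 1, 3.70, 3.57 and 4.0 at day 6, and 5.28 and 5.93 at day 12. In both genes the arrays of days 1 and 6 overlapped and the day 12 arrays lay above them.

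For bath-10 the log2 difference was 2.22 ± 0.22 (SE) for day 12 minus day 1 and 2.41 ± 0.22 for day 12 minus day 6, with limma adjusted p of 7.58e-05 and 8.58e-05. Its means at days 1 and 6 were under 3, where the floor can hide part of a difference. For bath-9 the differences were 1.69 ± 0.23 and 1.85 ± 0.23 (adjusted p = 0.00063 and 0.000552), or 3.24-fold and 3.60-fold. Both genes kept both calls under all 17 alternative settings. The third gene of the run, the pseudogene bath-23, stayed between 1.97 and 2.23 on all 8 arrays. In each of these pairs of adjacent genes, the deposited table does not say how far their probes could share transcripts.

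A second group of bath and btb genes was already higher at day 6 and still higher at day 12. The btb-11 gene (probe 18501442) gave 3.80, 3.17 and 2.98 at day 1, 4.12, 4.50 and 4.81 at day 6, and 5.35 and 5.32 at day 12. For btb-6 (probe 18484400) the arrays read 4.46, 4.85 and 4.60 at day 1, 5.67, 5.48 and 5.63 at day 6, and 5.80 and 6.19 at day 12. On the bath-38 probe (18499856) they read 4.14, 4.38 and 4.47 at day 1, 5.29, 5.06 and 4.95 at day 6, and 5.47 and 5.70 at day 12. The 3 days did not overlap in any of these 3 genes, and the means went in the order of age.

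Between day 12 and day 1 the difference was 2.02 ± 0.26 for btb-11 (adjusted p = 0.000472), which is 4.05-fold. It was 1.36 ± 0.18 for btb-6 (adjusted p = 0.000557) and 1.26 ± 0.17 for bath-38 (adjusted p = 0.000721), and the 3 genes kept this call in every alternative. At day 6 against day 1 they differed by 1.16 ± 0.23, 0.96 ± 0.16 and 0.77 ± 0.16 (adjusted p = 0.0258, 0.012 and 0.0258 for btb-11, btb-6 and bath-38).

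These calls at day 6 were fragile, although the differences kept their sign and stayed between 0.67 and 1.397 with any array left out. That of btb-11 was lost without day 1 replicate 2 (1.08) or 3 (0.99) and without day 6 replicate 2 (1.14) or 3 (0.99), with adjusted p of 0.0686 to 0.0956. The btb-6 call ended without day 6 replicate 1 (0.92, adjusted p = 0.0609) or 3 (0.94, adjusted p = 0.0512). For bath-38 it was lost without day 1 replicate 1 or 2 or any 1 day 6 array, with adjusted p of 0.0548 to 0.12. With the replicate number as a block, btb-11 and bath-38 missed the threshold at day 6 (adjusted p = 0.0552 and 0.0586), as did btb-11 under cyclic loess (adjusted p = 0.0542). The steps from day 6 to day 12 were 0.86 ± 0.26, 0.40 ± 0.18 and 0.48 ± 0.17 for btb-11, btb-6 and bath-38, and none passed the test (adjusted p = 0.0758, 0.253 and 0.138). For btb-11 that step was called without day 1 replicate 1 (adjusted p = 0.0324), with dim probes left out (adjusted p = 0.0496) and with the arrays of those days alone (adjusted p = 0.0449).

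The bath-36 gene on chromosome V differed in shape, reaching its level by day 6. Its own probe (18580320) gave 4.85, 5.15 and 5.42 at day 1, 6.22, 6.25 and 5.96 at day 6, and 6.00 and 6.22 at day 12. Days 6 and 12 overlapped and lay above day 1. The differences from day 1 were 1.00 ± 0.17 at day 6 (adjusted p = 0.0133) and 0.97 ± 0.19 at day 12 (adjusted p = 0.0067), and that of day 12 against day 6 was -0.03 ± 0.19. With day 6 replicate 1 left out the first call ended (0.97, adjusted p = 0.0654), and with day 12 replicate 2 left out the second (0.86, adjusted p = 0.0715). A second probe carries the symbols of both bath-36 and cyn-3, a cyclophilin gene, and so was not used for bath-36. It did not move the same way, with -0.13 ± 0.18 at day 6 and -0.47 ± 0.20 at day 12 against day 1 (adjusted p = 0.787 and 0.175).

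Further members were called higher at day 12 against day 1 alone. Signal of btb-8 (probe 18484394) was 2.99, 3.01 and 2.64 at day 1, 3.37, 3.28 and 3.70 at day 6, and 3.82 and 4.17 at day 12. The dim bath-31 (probe 18482152) gave 2.17, 2.16 and 2.22 at day 1, 2.60, 2.61 and 2.50 at day 6, and 2.85 and 3.30 at day 12. In both genes the 3 days were apart, with day 6 between the others. The differences of day 12 minus day 1 were 1.11 ± 0.20 for btb-8 (adjusted p = 0.00317) and 0.90 ± 0.17 for bath-31 (adjusted p = 0.00435), each from a day 1 mean under 3. Both calls held in every alternative that tested the gene. For bath-31 the step from day 6 to day 12, 0.51 ± 0.17, was called without day 12 replicate 1 (0.74, adjusted p = 0.0387) and not with all arrays (adjusted p = 0.0973).

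The calls of btb-10 and of the adjacent genes btb-12 and btb-13, of which btb-13 is listed as a pseudogene, depended on single arrays. On the btb-12 probe (18491683) the arrays read 2.12, 2.27 and 1.99 at day 1, 2.36, 2.80 and 3.11 at day 6, and 2.64 and 3.76 at day 12. For btb-13 (probe 18506677) they read 2.27, 1.56 and 1.64 at day 1, 2.37, 1.90 and 2.68 at day 6, and 2.57 and 3.29 at day 12. Signal of btb-10 (probe 18500874) was 2.72, 2.24 and 2.27 at day 1, 2.49, 2.29 and 2.29 at day 6, and 2.89 and 4.10 at day 12. In each the second day 12 array was the highest of the 8, and the first was much closer to the earlier days.

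The differences of day 12 minus day 1 were 1.07 ± 0.31, 1.11 ± 0.30 and 1.08 ± 0.31 for btb-12, btb-13 and btb-10 (adjusted p = 0.0463, 0.0339 and 0.0403). Without day 12 replicate 2 they were 0.51, 0.75 and 0.48 (adjusted p = 0.383, 0.29 and 0.318). The calls also ended without any 1 day 1 array or without day 6 replicate 2 for btb-12 (1.00 to 1.14, adjusted p = 0.0667 to 0.108), and without day 1 replicate 2 or 3 or day 6 replicate 1 for btb-13 (0.97 to 1.11, adjusted p = 0.0514 to 0.101). For btb-10 they ended without day 1 replicate 2 or 3 or any 1 day 6 array (0.99 to 1.08, adjusted p = 0.0577 to 0.108), and all 3 calls were lost under quantile normalization (adjusted p = 0.0609 to 0.0768). Cyclic loess and a fit to the arrays of those days alone ended those of btb-10 and btb-12 (adjusted p = 0.0647 to 0.0898), the replicate block those of btb-10 and btb-13 (adjusted p = 0.0993 and 0.065), and array weights and the test of all probes that of btb-12 (adjusted p = 0.0668 and 0.056). The btb-10 gene was also called at day 12 against day 6, by 1.13 ± 0.31 (adjusted p = 0.0456), a call that ended without day 12 replicate 2 (0.53, adjusted p = 0.338), without day 1 replicate 2 or 3, and without any 1 day 6 array (1.10 to 1.20, adjusted p = 0.0568 to 0.12), and under 6 other settings (adjusted p = 0.0525 to 0.112).

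Only btb-14 among the bright members was called lower at day 12 against day 1. Its probe (18491499) gave 5.60, 5.59 and 5.67 at day 1, 5.03, 5.01 and 4.89 at day 6, and 4.32 and 4.64 at day 12, with the days apart and falling in the order of age. The difference was -1.14 ± 0.15 for day 12 minus day 1 (adjusted p = 0.00062), which is 0.454 of the day 1 level, and it was called in every alternative. For day 6 minus day 1 it was -0.64 ± 0.14 (adjusted p = 0.0329). This smaller step missed the threshold without any 1 of the 6 arrays of those days (-0.60 to -0.67, adjusted p = 0.072 to 0.119) and with the replicate block (adjusted p = 0.0721). From day 6 to day 12 it was -0.50 ± 0.15 (adjusted p = 0.0817), and was called under quantile normalization (-0.67, adjusted p = 0.0199) and with dim probes left out (adjusted p = 0.0366).

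The dim btb-16 (probe 18483830) was the other gene called lower. It gave 2.76, 3.70 and 3.21 at day 1, 3.30, 3.09 and 3.30 at day 6, and 1.92 and 2.24 at day 12, so days 1 and 6 overlapped and day 12 lay below them. The differences were -1.14 ± 0.25 for day 12 minus day 1 (adjusted p = 0.0108) and -1.16 ± 0.25 for day 12 minus day 6 (adjusted p = 0.0148), both to a level under 3. Without day 12 replicate 1 neither was called (-0.98 and -0.996, adjusted p = 0.0994 and 0.121), and the second also ended without day 6 replicate 3 (-1.12, adjusted p = 0.0514) or day 12 replicate 2 (-1.31, adjusted p = 0.055). Its neighbours did not pass the test, with differences of day 12 minus day 1 of -0.97 ± 0.45 for btb-17 and 0.37 ± 0.19 for btb-18. In btb-17 the day 1 arrays alone ran from 2.51 to 4.41.

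Higher signal at day 6 than on both other days was seen in 2 dim genes. Signal of bath-26 (probe 18502980) was 1.99, 2.31 and 2.32 at day 1, 3.82, 3.16 and 3.15 at day 6, and 1.70 and 2.45 at day 12. For math-45 (probe 18505853) it was 2.31, 1.82 and 2.13 at day 1, 3.19, 2.71 and 3.23 at day 6, and 2.17 and 2.04 at day 12. In both genes the day 6 arrays lay above all others, and days 1 and 12 overlapped.

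For bath-26 the difference was 1.17 ± 0.24 for day 6 minus day 1 and -1.30 ± 0.27 for day 12 minus day 6 (adjusted p = 0.0277 and 0.0122). For math-45 these were 0.95 ± 0.19 and -0.93 ± 0.21 (adjusted p = 0.0215 and 0.0179). Over the whole span, day 12 minus day 1, the genes differed by -0.13 ± 0.27 and 0.02 ± 0.21. The first step of bath-26 was lost without any 1 array of days 1 and 6 other than day 6 replicate 2 (0.95 to 1.28, adjusted p = 0.0518 to 0.106) and with the replicate block (adjusted p = 0.0557), and the second without day 12 replicate 1 (-0.92, adjusted p = 0.118). For math-45 the first was lost without day 1 replicate 2 or day 6 replicate 1 or 3 (0.82 to 0.88, adjusted p = 0.0668 to 0.102), and the second without day 6 replicate 1 or 3 or either day 12 array (-0.84 to -0.996, adjusted p = 0.0633 to 0.137).

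The other math gene called was math-34 (probe 18486605), with every day mean under 3. It gave 1.98, 1.86 and 1.89 at day 1, 1.80, 1.58 and 1.76 at day 6, and 2.68 and 2.57 at day 12, so day 12 stood above the rest. The difference was 0.91 ± 0.15 for day 12 minus day 6 (adjusted p = 0.00283), called in every alternative that tested it, and 0.71 ± 0.15 for day 12 minus day 1 (adjusted p = 0.00824), lost without day 12 replicate 1 (0.65, adjusted p = 0.0609).

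Of the members called lower at day 12 against day 6, bath-41 and bath-7 showed no called difference from day 1. The bath-41 probe (18523865), with the highest mean of the members, gave 8.97, 9.05 and 8.87 at day 1, 9.35, 9.23 and 9.17 at day 6, and 8.79 and 8.57 at day 12. Signal of bath-7 (probe 18499785) was 2.93, 3.36 and 3.15 at day 1, 3.74, 3.52 and 3.37 at day 6, and 2.85 and 2.83 at day 12. In both genes the 3 days were apart, with day 6 highest and day 12 lowest.

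Day 12 minus day 6 was -0.57 ± 0.15 for bath-41 and -0.71 ± 0.18 for bath-7 (adjusted p = 0.0435 and 0.0329). The bath-41 call ended without any 1 of the 8 arrays (-0.46 to -0.67, adjusted p = 0.0501 to 0.27). It ended too under quantile (adjusted p = 0.0555) and cyclic loess normalization (adjusted p = 0.0672), with the replicate block (adjusted p = 0.0753) and with the arrays of days 6 and 12 alone (adjusted p = 0.0623). That of bath-7 ended without day 6 replicate 1 or 2 or either day 12 array (-0.61 to -0.72, adjusted p = 0.0823 to 0.165), with a variance trend and robust prior (adjusted p = 0.084) and with the replicate block (adjusted p = 0.0651). Under quantile normalization this comparison had 3 members higher and 6 lower, in place of 4 and 5. Of all probes, 5.24% were then higher and 3.19% lower, in place of 6.36% and 2.69%.

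Most of the brightest members were not called. The 10 with the highest means were bath-41, bath-42, bath-40, bath-44, math-33, bath-15, bath-5, btb-19, bath-2 and bath-36. Of these, bath-36 and bath-41 were called, beside 33.8% of bright probes called at least once. For bath-42 the arrays read 8.62, 8.64 and 8.58 at day 1, 9.11, 9.02 and 9.05 at day 6, and 9.10 and 8.98 at day 12. Days 6 and 12 lay above day 1, with differences of 0.45 ± 0.12 and 0.43 ± 0.14 that missed the threshold (adjusted p = 0.0838 and 0.0726). They passed it with a variance trend and robust prior (adjusted p = 0.0201 and 0.017) and with dim probes left out (adjusted p = 0.0296 and 0.0259).

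The math-33 gene encodes the deubiquitylase that acts on the FOXO transcription factor DAF-16 in C. elegans. Its signal was 8.02, 8.14 and 8.15 at day 1, 7.97, 8.12 and 8.22 at day 6, and 8.34 and 8.18 at day 12. The differences were -0.00 ± 0.13 for day 6 minus day 1 and 0.16 ± 0.15 for day 12 minus day 1 (adjusted p = 0.999 and 0.593). The daf-16 gene differed by 0.02 ± 0.18 and 0.09 ± 0.20 in these comparisons.

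For bath-40 the day 12 arrays read 8.68 and 8.50, within or below the day 1 range of 8.60 to 8.91, and for bath-44 they read 8.61 and 8.31 against 8.22 to 8.35 at day 1. In bath-15 the day 12 arrays, at 7.15 and 7.17, lay below the day 1 range of 7.29 to 7.79, with a difference of -0.39 ± 0.17 (adjusted p = 0.188). For bath-5 the day 6 arrays, 6.58 to 6.81, lay above day 1 at 6.15 to 6.41 and day 12 at 6.25 and 6.39, with no call (0.42 ± 0.14 for day 6 minus day 1, adjusted p = 0.148). The btb-19 and bath-2 genes had differences of 0.44 ± 0.21 and 0.03 ± 0.16 for day 6 minus day 1 and 0.15 ± 0.24 and -0.01 ± 0.18 for day 12 minus day 1.

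Over the 27 bright members that were not called, differences ran from -0.60 to 0.87 for day 6 minus day 1, from -0.45 to 0.70 for day 12 minus day 1 and from -0.58 to 0.16 for day 12 minus day 6. For day 6 minus day 1, 20 of the 27 were above 0 and 7 below, and for day 12 minus day 6, 7 were above 0 and 20 below. Of all 9861 bright probes, called ones included, 6218 were above 0 and 3643 below for day 6 minus day 1. For day 12 minus day 6 these counts were 4618 and 5243, and whether the members differ from them was not tested. With 3 and 2 arrays a difference of this size can escape the test, so a missing call does not show an equal level.

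**Figure D2:**
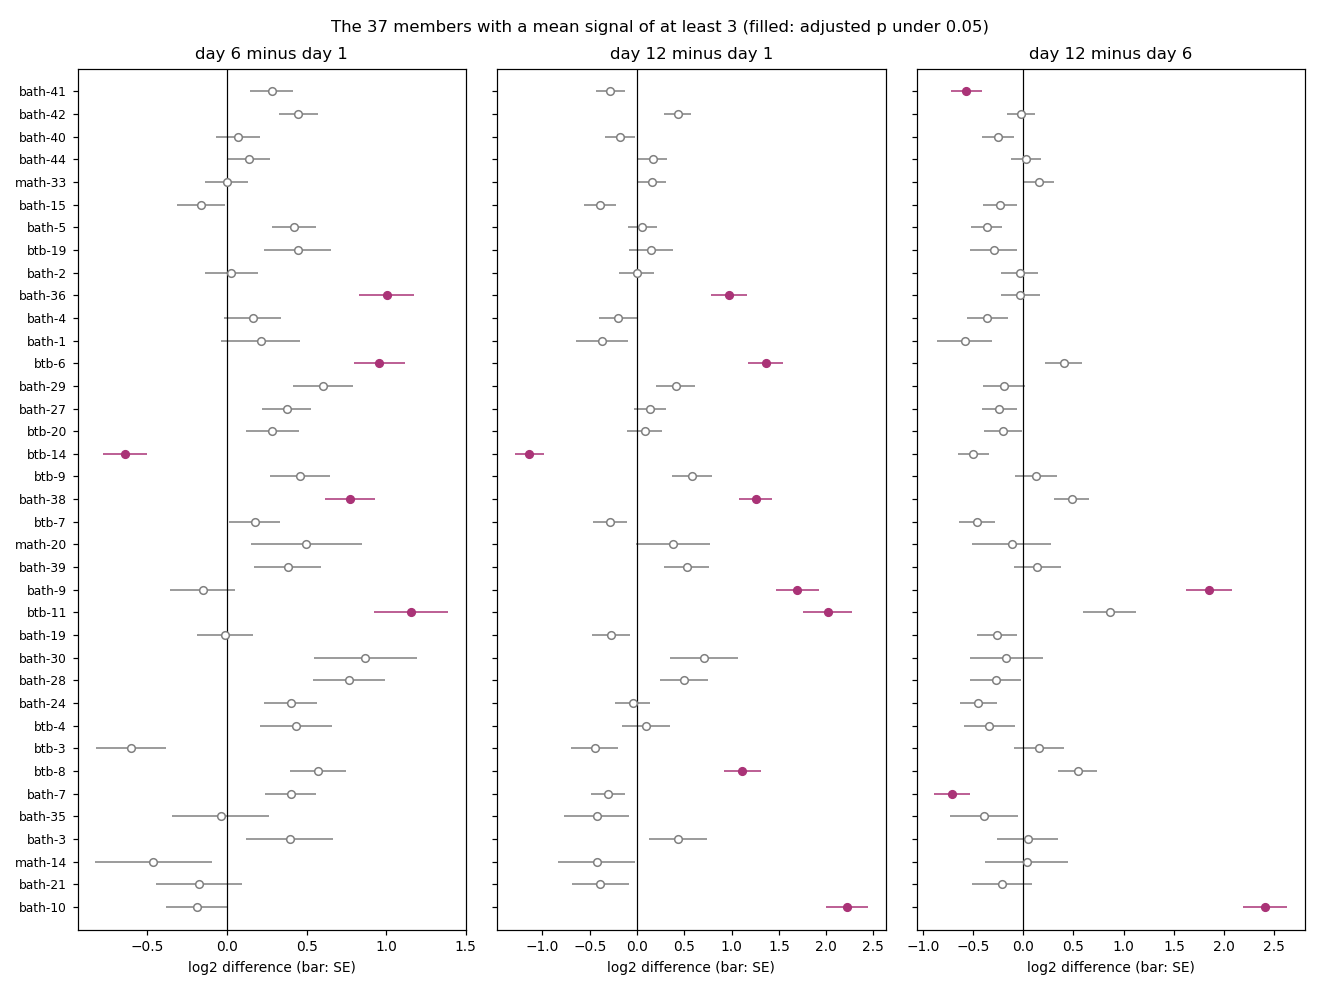
Log2 differences (horizontal axes, later minus earlier day) of the 37 MATH and BTB genes with a mean signal of at least 3, ordered from the highest mean at the top. Points are limma estimates, bars are ± 1 SE, and filled points are genes with an adjusted p under 0.05. At day 12 against day 1, 7 genes are filled above 0 and btb-14 alone is filled below 0.

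On chromosome II the called members lay in several places, all outside the runs made up of math genes. Over all chromosomes, 8 of the 61 members next to another member were called, in 6 of the 17 runs. Of the 42 members with no member beside them 10 were called. These 42 include the 16 members on other chromosomes, and the 10 include bath-36 and bath-41. Beside them, 16.4% of all probes were called at least once, 33.8% of the bright and 6.2% of the dim ones. The 2 positions were not tested against each other. Many genes of the runs were dim math genes, so position and signal level were not separated in these counts. In the run of bath-23, bath-10 and bath-9, the last 2 rose at day 12. In the pair btb-13 and btb-12 both were called, with the limits given above. In the pair btb-7 and btb-6, day 12 minus day 1 was -0.29 ± 0.18 for btb-7 (adjusted p = 0.38) and 1.36 ± 0.18 for btb-6. In the run of bath-46, bath-26, bath-47 and bath-33, bath-26 alone was called. None of the 12 genes of the longest math run was called, and math-14 was the 1 of them that was bright.

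**Figure D3:**
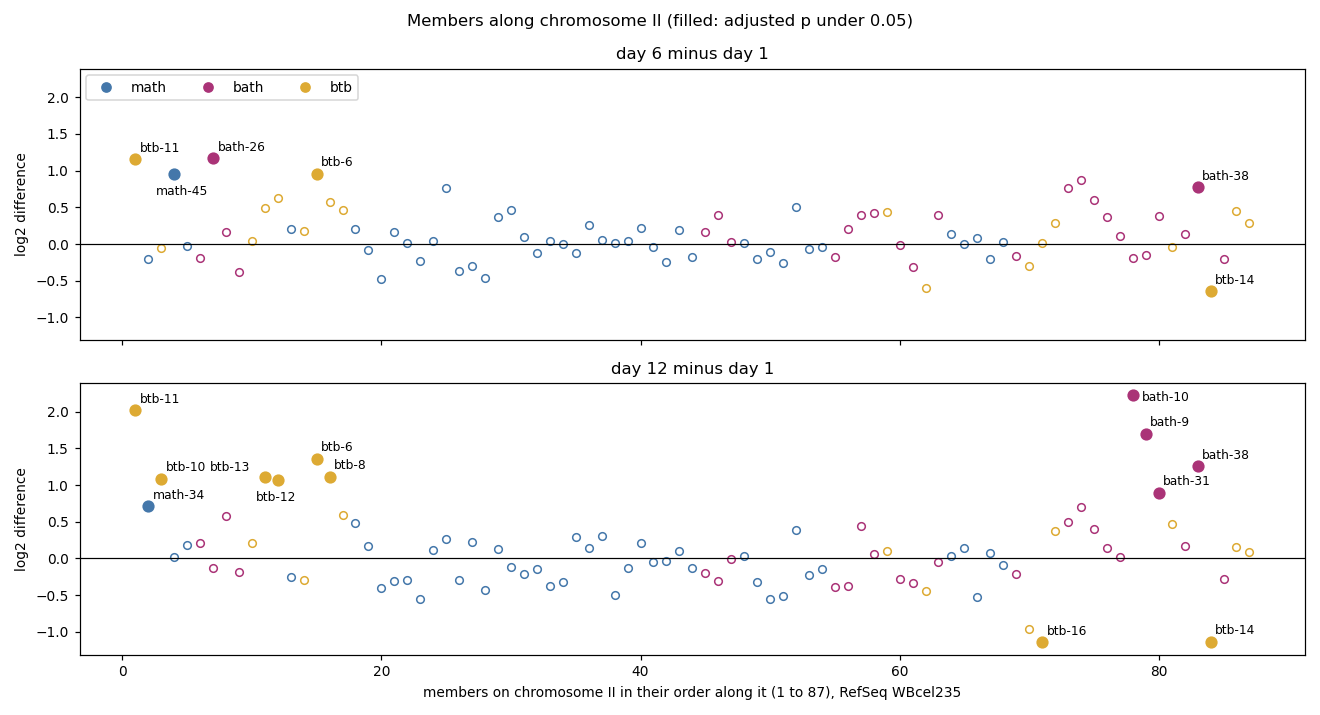
Log2 difference (vertical axes) of the 87 members on chromosome II in their order along it (horizontal axis), for day 6 minus day 1 above and day 12 minus day 1 below. Colours mark the math, bath and btb classes, and filled, named points have an adjusted p under 0.05. At day 12 bath-10, bath-9, bath-31 and bath-38 are filled close to each other in this order, and the math genes in the middle are open. The axis shows order and not distance: bath-10 and bath-9 are adjacent genes, while bath-31 has no member beside it.

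Genes of other kinds that lie beside the called members, up to 2 places away on either side, were called in some places. Of 36 such genes, 1 was higher at day 6 against day 1 (ZC204.12, near btb-12 and btb-13, by 1.49), beside 2.18% of all probes. At day 12 against day 1, 5 were higher and 1 lower, beside 9.58% and 4.52% of all probes. At day 12 against day 6, 4 were higher and none lower, beside 6.36% and 2.69%. These counts were not tested against those shares. Called at day 12 against day 1 were the F-box genes fbxb-11 beside btb-8 (1.73), fbxb-15 near btb-12 and btb-13 (1.20) and fbxb-41 near math-34 (2.26). The others were K02E7.6 (1.48) and K02E7.10 (0.99), which flank btb-10, while fdgt-1 beside math-45 was lower (-0.67).

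Genes of the ligase that the BTB domain serves were mostly not called. Of 17 genes listed for the cullin-3 ligase and its regulators, 16 were measured and all were bright. The list also holds mei-1, the gene of the MEL-26 target, and mei-2, so its counts and median are not those of the ligase alone. At day 6 against day 1 none was called, beside 5.31% of bright probes higher and 4.05% lower. All 16 were above 0 there (median 0.13), beside 6218 of 9861 bright probes (median 0.12). None was called at day 12 against day 6, beside 11.7% and 6.56%. From day 1 to day 12, 2 were called higher and none lower, beside 18.8% and 10.4% of bright probes, and the list median was 0.07 beside 0.11. Signal of cul-3, the cullin scaffold, was 8.10, 8.19 and 8.11 at day 1, 8.30, 8.27 and 8.44 at day 6, and 8.24 and 7.76 at day 12, and day 12 minus day 1 was -0.13 ± 0.17 (adjusted p = 0.715). The RING subunit gene rbx-1, the ubiquitin-like modifier gene ned-8 and the MEL-26 target gene mei-1 differed by 0.04 ± 0.20, 0.26 ± 0.22 and -0.06 ± 0.14 in that comparison.

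For mel-26 itself, the arrays read 9.74, 9.65 and 9.83 at day 1, 10.13, 10.08 and 10.17 at day 6, and 10.30 and 9.97 at day 12. Both later days lay above day 1, by 0.38 ± 0.14 and 0.40 ± 0.16 (adjusted p = 0.192 and 0.141), and day 12 was called with a variance trend and robust prior alone (adjusted p = 0.0353). The 2 called genes encode subunits of the COP9 signalosome, which removes NED-8 from cullins. They were csn-4 (0.70 ± 0.17, adjusted p = 0.0197) and csn-2 (0.50 ± 0.15, adjusted p = 0.0449). The csn-2 call was lost without any 1 of the 8 arrays (0.43 to 0.56, adjusted p = 0.0539 to 0.18) and under 6 other settings (adjusted p = 0.0519 to 0.132), and that of csn-4 without day 1 replicate 1 or 2 or either day 12 array (0.62 to 0.77, adjusted p = 0.0567 to 0.125) and with the arrays of those days alone (adjusted p = 0.0602).

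Among the 5 other cullins, all bright, cul-6 alone was called, beside 33.8% of bright probes called at least once. Signal of cul-6 was higher at day 12. The cul-6 gene, a cullin of the C. elegans intracellular pathogen response, gave 3.24, 3.42 and 3.22 at day 1, 3.29, 3.04 and 2.77 at day 6, and 4.43 and 4.68 at day 12. Its differences were 1.26 ± 0.19 for day 12 minus day 1 and 1.52 ± 0.19 for day 12 minus day 6 (adjusted p = 0.00104 and 0.000488), and all 17 alternatives kept both calls. As in bath-10 and bath-9, both day 12 arrays lay above all arrays of days 1 and 6.

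**Figure D4:**
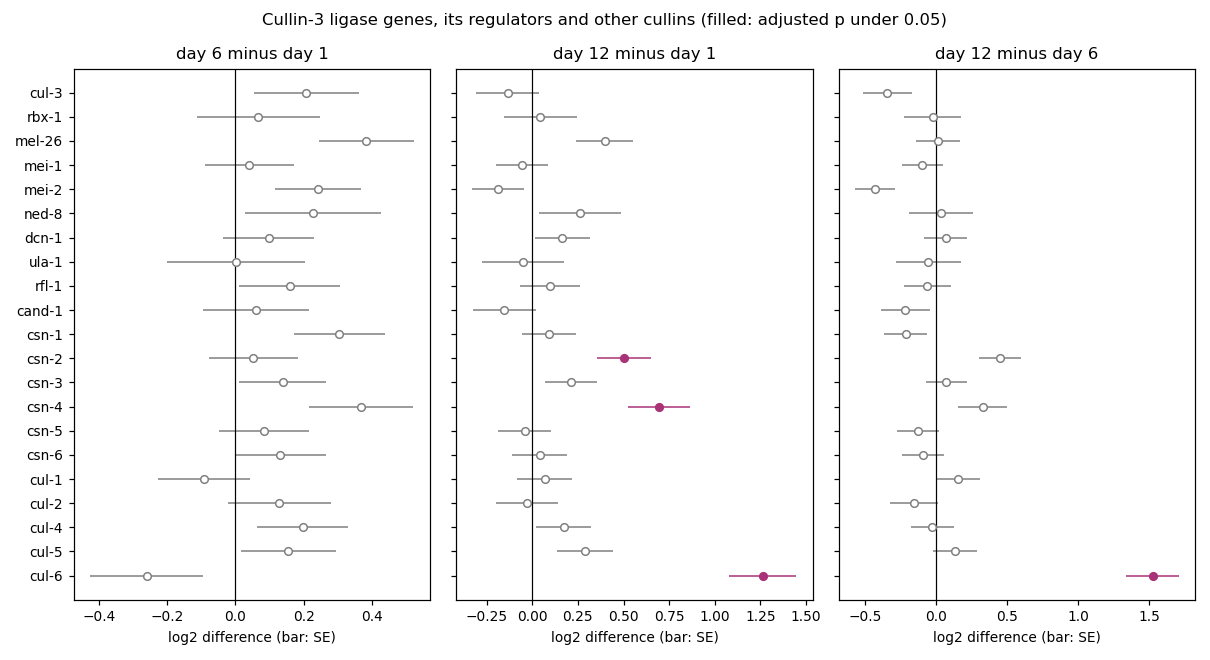
Log2 differences (horizontal axes, later minus earlier day) of 16 genes listed for the cullin-3 ligase and its regulators, mei-1 and mei-2 included, and of 5 other cullins. Points are limma estimates with ± 1 SE bars, and filled points have an adjusted p under 0.05. At day 12 against day 1 csn-2, csn-4 and cul-6 are filled, all above 0, and at day 12 against day 6 cul-6 alone.

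BTB and MATH genes with other names were not called in any comparison, beside 16.4% of all probes called at least once. Of 10 listed BTB genes 9 were measured, with medians of 0.15, 0.04 and 0.01 for day 6 minus day 1, day 12 minus day 1 and day 12 minus day 6. Among them eor-1, which encodes a BTB zinc-finger protein, differed by 0.42 ± 0.15 at day 12 against day 1 (adjusted p = 0.102) and passed the threshold with dim probes left out (adjusted p = 0.0418). The kelch gene kel-8 differed by -1.09 ± 0.27 at day 6 and -0.86 ± 0.30 at day 12 against day 1 (adjusted p = 0.0591 and 0.0988). Without day 1 replicate 1 both were called, at -1.34 and -1.12 (adjusted p = 0.034 and 0.0312), as they were under quantile and cyclic loess normalization (adjusted p = 0.0257 to 0.0409). The MATH gene trf-1 was dim, with differences of 0.00 to 0.06. Of 9 usp deubiquitylase genes, all bright, usp-33 alone was called, beside 33.8% of bright probes called at least once. Its differences were 0.67 ± 0.14 for day 6 minus day 1 and 0.60 ± 0.15 for day 12 minus day 1 (adjusted p = 0.0277 and 0.0259). Both calls were lost without day 1 replicate 1 or 2, the first also without day 6 replicate 1 or 3 (0.62 to 0.65, adjusted p = 0.0765 to 0.125) and the second without either day 12 array (0.57 to 0.62, adjusted p = 0.063 to 0.118), and cyclic loess ended both (adjusted p = 0.0653 and 0.0693). The replicate block also ended the first (adjusted p = 0.0519), and quantile normalization and the arrays of those days alone the second (adjusted p = 0.0673 and 0.0549).

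F-box families, the other large adaptor families, give a scale for these counts. Of the 103 MATH and BTB genes 11.7% were called higher at day 12 against day 1, with 10.2% of 186 F-box A genes and 30.7% of 150 F-box B and C genes beside 9.58% of all probes. For day 12 against day 6 these shares were 3.88%, 5.38% and 23.3%, beside 6.36%. For day 6 against day 1 they were 5.83%, 3.23% and 2%, beside 2.18%. Called lower at day 12 against day 1 were 1.94%, 1.61% and 1.33%, beside 4.52%. The median differences of day 12 minus day 1 were 0.03, 0.05 and 0.31. Dim genes made up 64.1%, 75.8% and 82.7% of these families in the same order. Among their bright genes, 18.9%, 24.4% and 69.2% were higher at day 12 against day 1, beside 18.8% of bright probes. Whether the families differ from each other was not tested.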

How the data were processed

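Per the labels, Trizol-extracted RNA of whole N2 populations at 3 ages was biotin-labelled for Affymetrix C. elegans Gene 1.1 ST arrays. The deposited table holds 29317 probes on 8 arrays as log2 signal, from 0.68 to 13.23. Which software, normalization and log base the authors used is not given in the sources used here, and the base was inferred from that range. Arrays give no counts, so their number limits the precision.

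A probe annotation gave 26281 probes exactly 1 symbol, 480 several and 2556 none. Among single-symbol probes the brightest stood for a gene, which gave 26128 genes. A mean per day was fitted over the 8 arrays with limma 3.58.1 (lmFit and eBayes, defaults, two-sided) in R 4.3.3, with Benjamini-Hochberg adjustment over the 26761 probes with a symbol, 5 residual and 5.07 prior degrees of freedom. A call is an adjusted p under 0.05. The fit was also run on simulated data, with independent noise at each probe's own spread and known changes at day 12 alone. That run held no batch or array effect and no change at day 6. It does not bear on how the calls here depend on single arrays, and its outcome is not given here. Values named are those of all called members, the 10 brightest members, math-33, bath-15, bath-40 and bath-42, and called or preset genes of the pathway lists. Other genes are named as neighbours of these or for lying near the level of 3, and were chosen after their values were seen. The members and lists were chosen with earlier results of these data known.

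Gene IDs matched all 103 members to RefSeq (assembly WBcel235), used for names, chromosomes and neighbours. RefSeq holds 114 such symbols, and the 11 others are not analysed here as members, nor is bath-43. Of the probes with several symbols, 3 carry a member-type symbol: math-47 with ZK250.13, math-48 with ZK250.14, and bath-36 with cyn-3. Alternatives were another variance model, quantile and cyclic loess normalization, median centring, dim probes left out, all probes of the table, the arrays of the days compared alone, array weights, each array left out and the replicate number as a block. For same-numbered arrays, correlations of their deviations from the day means were -0.114 to 0.112. With so few arrays per day mean, these values cannot exclude a pairing.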

Additional observations from a re-analysis of the deposited data

How the results depend on the processing

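No called difference of a named gene turned its sign, while 15 of 48 uncalled differences of named members and 19 of 33 of other named genes did so at least once. Of 30 calls of members, 11 were kept in every alternative: 0 of 7 for day 6 against day 1, 8 of 14 for day 12 against day 1 and 3 of 9 for day 12 against day 6. Recomputed under the alternatives, these calls held 399 of 497 times and missed the threshold 98 times, and the 48 differences of named members without a call passed it 10 of 805 times. The 6 calls of other named genes held 70 of 102 times, and 33 uncalled differences passed it 13 of 558 times. Leaving out an array gave 1 to 6 members higher and 0 to 1 lower at day 6 against day 1, 8 to 11 higher and 1 to 4 lower at day 12 against day 1, and 3 to 5 higher and 0 to 4 lower at day 12 against day 6. A lone day 12 array was assumed to vary like the other days. Shares of all probes moved as well. Without an array of day 1 or 6, 0.624% to 1.84% were higher and 0.426% to 1.33% lower at day 6 against day 1. The main fit had 2.18% and 1.66%. For day 12 against day 1 the same fits gave 7.84% to 9.1% and 3.98% to 4.78%, in place of 9.58% and 4.52%. For day 12 against day 6 they gave 4.67% to 6.61% and 2% to 2.98%, in place of 6.36% and 2.69%. With dim probes left out, 1 member was lower at day 12 against day 1 and 3 at day 12 against day 6. Of the 9861 probes then tested, 13.1% and 8.74% were lower. Fewer members were tested, and the adjustment ran over fewer probes. The 3 include btb-14 (limma adjusted p = 0.0366), which the main fit did not call in that comparison. Nothing in the labels says whether the replicate numbers pair the arrays. With them as a block, 3 members were higher and 0 lower at day 6 against day 1, beside 1.52% and 1.41% of all probes. At day 12 against day 6, 3 members were lower in that fit, beside 2.24%. A gene's dimmest probe was not run, since no member had more than 1 single-symbol probe. The floor limits the 66 dim members, and the 2 arrays of day 12 limit every comparison with that day.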

Other observations

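2 probes shared between a math gene and another gene were left out of the members, and both were dim. The probe of math-47 and ZK250.13 gave 1.81, 2.12 and 1.68 at day 1, 2.32, 1.95 and 1.86 at day 6, and 1.72 and 1.94 at day 12. The probe of math-48 and ZK250.14 gave 1.87, 1.69 and 1.75 at day 1, 1.48, 1.69 and 1.68 at day 6, and 2.33 and 1.80 at day 12. Neither was called in any comparison.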
